A study of Mus musculus with 42 samples.

Results

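Interferon-stimulated genes were followed in microglia, the resident macrophages of the brain, sorted from WT and APP/PS1 mice. The members were 55 genes chosen by name from the type I and type II interferon response, out of 19151 genes in the table, and all 55 were present and reached a mean of 7 on the deposited log2 scale in at least 1 of the 12 groups, as did 14910 genes in all. APP/PS1 mice carry human transgenes for a mutant amyloid precursor protein and a mutant presenilin 1 that are expressed mainly in neurons, and deposit amyloid with age. All groups were male mice on a C57BL/6 background, killed at 4, 6 or 12 months without treatment. CD11b+ CD45+ cells were fixed and divided by FACS into proliferating (Ki67+) and non-proliferating (Ki67-) microglia, since Ki67 is a nuclear protein of cycling cells. There were 42 RNA-seq libraries. The WT Ki67+ groups held 5, 2 and 4 libraries at 4, 6 and 12 months and the WT Ki67- groups 5, 3 and 3, while both APP/PS1 gates held 4, 2 and 4. The CD11b and CD45 gate also takes in monocytes and border macrophages.

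Interferons are secreted cytokines that signal through paired receptor chains and JAK kinases to STAT and IRF transcription factors. Type I interferons act through Ifnar1 and Ifnar2 and lead Stat2 and Irf9 to the interferon-stimulated response element (ISRE), while genes that respond to interferon gamma often carry a gamma-activated site (GAS). The induced genes encode nucleic acid sensors, enzymes that degrade or edit RNA, proteins that block viral entry and budding, the ubiquitin-like modifier Isg15, and chemokines, and in the brain they mark a microglial state seen with ageing, infection and amyloid.

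The members were not chosen by promoter sequence, and stretches upstream of 5 of those that carry the ISRE core are shown as examples of it. They are RefSeq promoter sequences of build GRCm38.p6, 5' to 3' in the direction of the gene, from 160 bases before the RefSeq start up to that start or to where the GENCODE gene begins, and capitals mark each match to GAAANNGAAA or its reverse complement TTTCNNTTTC. Isg15, the ubiquitin-like modifier itself, has 3 overlapping matches that begin 78, 72 and 66 bases before the start (chr4:156200819-156200978, minus strand). Ifit3, an antiviral RNA-binding partner protein, has 2 separate matches at 156 and 122 bases (chr19:34583369-34583528, plus strand). Oas1a, a 2',5'-oligoadenylate synthetase, Bst2 (tetherin), which holds budding virions at the membrane, and Gbp3, a guanylate-binding GTPase, each have 2 overlapping matches, at 20 and 14 bases (chr5:120907526-120907685, minus strand), 130 and 124 bases (chr8:71537473-71537632, minus strand) and 45 and 39 bases (chr3:142559884-142560025, plus strand).
Isg15: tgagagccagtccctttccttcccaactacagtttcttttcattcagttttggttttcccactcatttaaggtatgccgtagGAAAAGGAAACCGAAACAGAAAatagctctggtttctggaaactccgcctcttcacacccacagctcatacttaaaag
Ifit3: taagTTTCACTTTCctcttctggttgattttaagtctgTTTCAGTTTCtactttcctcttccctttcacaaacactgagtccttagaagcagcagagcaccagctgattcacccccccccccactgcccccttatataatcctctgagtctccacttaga
Oas1a: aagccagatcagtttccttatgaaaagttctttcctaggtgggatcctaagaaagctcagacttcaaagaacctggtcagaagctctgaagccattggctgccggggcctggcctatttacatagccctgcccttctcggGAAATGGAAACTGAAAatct
Bst2: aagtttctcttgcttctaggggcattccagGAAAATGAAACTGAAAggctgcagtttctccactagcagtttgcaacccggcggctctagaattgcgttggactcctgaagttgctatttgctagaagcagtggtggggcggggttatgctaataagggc
Gbp3: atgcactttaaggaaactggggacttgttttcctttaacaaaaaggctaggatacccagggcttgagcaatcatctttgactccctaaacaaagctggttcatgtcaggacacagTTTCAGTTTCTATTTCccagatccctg

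In the RefSeq table, 42 of the 55 members had at least 1 promoter window of 300 bases (250 before to 50 after the start). An ISRE core was in 23 of 53 member windows (43.4%) and in 1131 of all 32851 windows (3.44%), and 21 of the 42 members had it in 1 window or more, against 3.99% of all genes. The GAS letters TTCNNNGAA, which read the same on both strands, were in 12 of the 53 member windows (22.6%) and in 8.30% of all windows. Bst2, Gbp2, Oas3, Cxcl10, Rsad2, Phf11b and Slfn5 were among the members with a core, and the windows of Lgals3bp, Irf7, Oasl1, Oasl2, Herc6 and Parp12 did not hold these letters. The members without a window were Dhx58, Zbp1, Ifi204, Oas2, Mx1, Mx2, Usp18, Parp9, Parp14, Ifi27l2a, Ifi27, Rtp4 and Tor3a. A match is a description of the letters in the window and not of a bound site.

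Levels are deposited log2-scale values in which low expression is compressed toward about 6. They carry no gene length and compare libraries, not genes. The mean of the 55 members ran from 8.50 to 8.69 in the 12-month APP/PS1 Ki67- libraries and from 8.06 to 8.10 in the 12-month WT Ki67- libraries. In Ki67+ cells at 12 months it ran from 8.64 to 8.84 in APP/PS1 and from 8.39 to 8.57 in WT. At 4 months the libraries of the genotypes overlapped in both gates, with 8.07 to 8.25 in APP/PS1 and 8.12 to 8.31 in WT for Ki67- cells. The lowest member mean of all groups was in 6-month WT Ki67+ cells, at 7.90 and 7.93. The members lie on 15 chromosomes, 10 of them on chromosome 11 and 7 on chromosome 16.

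**Figure D1:**
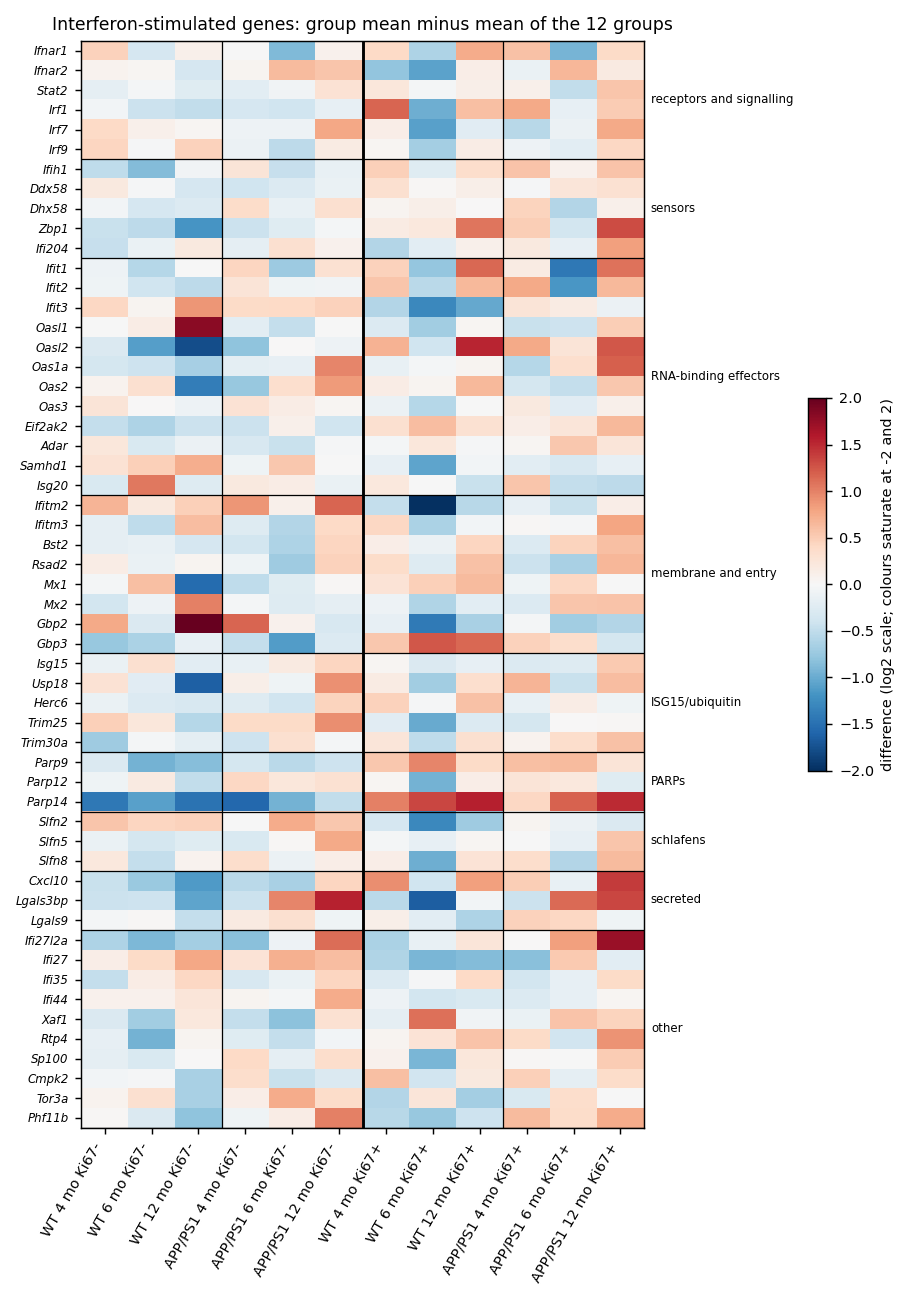
Group mean of each of the 55 members minus its mean over the 12 groups (colour, log2 scale), with Ki67- groups left and Ki67+ groups right, ordered by genotype and age, and rows blocked by role. Gbp2 and Oasl1 are red and Usp18, Oas2, Mx1 and Oasl2 blue in 12-month WT Ki67- cells, while Lgals3bp and Ifi27l2a are red in both 12-month APP/PS1 columns.

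Some libraries stood apart. The 3 libraries of 12-month WT Ki67- cells were nearly the same after the authors' removal of surrogate variables, as were replicates 1 and 2 of 4-month WT Ki67- cells. Their median absolute difference over genes was 0.0215 to 0.0569, against 0.106 to 0.407 for the other 55 pairs within a group, so results that use them were also computed with each such set counted as 1 sample, a choice made after seeing the data, and calls lost that way are given. In each comparison that used the 12-month set, calls over all genes fell too when that set was counted as 1 sample. Marker lists of other cells moved with the groups. The mean of the 10 microglial markers was lowest in 6-month WT Ki67+ cells (12.25 against 13.08 to 13.60 in the other groups), and that of the oligodendrocyte markers was highest in the 6-month Ki67+ cells (12.71 in APP/PS1 and 11.61 in WT, against 8.54 to 10.37 elsewhere). Astrocyte markers were at 10.62 to 11.29 in the Ki67+ groups at 4 and 12 months and 7.53 to 8.34 in all Ki67- groups. In such bulk samples, fewer cells of a type and less RNA per cell cannot be told apart. The labels do not state that each library came from its own animal, so the p-values measure the spread between these libraries.

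APP/PS1 and WT cells were compared first, at each age and in each gate. The genotypes did not overlap for many of the 14910 genes tested. At 12 months 2333 were higher and 2720 lower in APP/PS1 without overlap in Ki67+ cells, and 3441 and 3629 in Ki67- cells. At 6 months the counts were 4692 and 4249 in Ki67+ cells and 1670 and 1768 in Ki67- cells. In Ki67+ cells at 12 months, 5 of 55 members passed an adjusted p of 0.05 in limma, 3 higher and 2 lower in APP/PS1, against 4.43% and 5.34% of all genes tested. The largest rise was in Ifi27l2a, which encodes a small hydrophobic interferon-induced membrane protein, and the next in Lgals3bp, a secreted glycoprotein that binds galectins. Irf7, the transcription factor that amplifies type I interferon production, was also higher. Gbp3 and Herc6, the main mouse ligase that attaches Isg15 to proteins, were lower.

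Lgals3bp (chr11:118392751-118402092, minus strand) had values of 12.60, 12.51, 12.83 and 12.61 in the 12-month APP/PS1 Ki67+ libraries and 11.21, 11.22, 11.11 and 11.46 in the WT Ki67+ libraries. In Ki67- cells the values were 13.06, 12.94, 12.50 and 12.86 in APP/PS1 and 10.26, 10.26 and 10.18 in WT. All APP/PS1 libraries lay above all WT libraries in both gates, and the differences were 1.39 (SE 0.27, adjusted p = 0.00243) in Ki67+ cells and 2.61 (SE 0.29, adjusted p = 1.21e-06) in Ki67- cells. At 6 months the values were already 12.73 and 12.14 in APP/PS1 Ki67+ cells and 12.20 and 12.35 in APP/PS1 Ki67- cells. WT cells of that age had 10.27 and 9.03 in the Ki67+ gate and 10.98, 11.29 and 10.36 in the Ki67- gate, with no overlap. The 6-month difference was 2.78 (SE 0.38, adjusted p = 3.96e-05) in Ki67+ cells and 1.40 (SE 0.35, adjusted p = 0.202) in Ki67- cells, and at 4 months it was 0.11 and 0.00. Counting the nearly identical libraries as 1 sample left the 12-month Ki67- difference past the threshold, at an adjusted p of 0.0012.

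Ifi27l2a (chr12:103442167-103443680, minus strand) had 10.22, 10.84, 10.14 and 10.90 in the 12-month APP/PS1 Ki67+ libraries and 8.90, 8.89, 8.63 and 9.71 in the WT Ki67+ libraries. The Ki67- values were 9.75, 10.68, 9.60 and 9.63 in APP/PS1 and 8.10, 8.12 and 8.14 in WT. Neither gate had an overlap between genotypes, and the differences were 1.49 (SE 0.33, adjusted p = 0.00564) and 1.79 (SE 0.35, adjusted p = 0.00103). The second of these, in Ki67- cells, had an adjusted p of 0.0711 with the nearly identical libraries counted as 1 sample.

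Irf7 (chr7:141262706-141266481, minus strand) had 8.42, 8.87, 7.98 and 8.79 in 12-month APP/PS1 Ki67+ libraries and 7.53, 7.30, 7.63 and 7.69 in WT. These did not overlap, with a difference of 0.98 (SE 0.28, adjusted p = 0.0275). In Ki67- cells the libraries overlapped (7.84, 9.23, 8.67 and 8.39 against 7.87, 7.83 and 7.71), and the difference of 0.73 (SE 0.30) had an adjusted p of 0.103. Gbp3 was at 7.03, 6.89, 7.32 and 7.07 in APP/PS1 Ki67+ libraries and at 8.54, 8.72, 8.66 and 8.39 in WT, lower by 1.50 on the log2 scale with no overlap (log2 difference -1.50, SE 0.31, adjusted p = 0.00349). Herc6 was at 7.96, 7.96, 7.87 and 7.78 against 8.56, 8.51, 8.83 and 8.34, also without overlap (-0.67, SE 0.21, adjusted p = 0.0422). Lgals3bp, Ifi27l2a and Gbp3 stayed past the threshold when any 1 library of the comparison was left out, and the count fell from 5 to 3 without WT replicate 1, WT replicate 2, APP/PS1 replicate 2 or APP/PS1 replicate 4. In this comparison 9 of 11 disease-associated microglia markers were also higher and 2 of 6 astrocyte markers lower (Gja1, -1.36, and Aldh1l1, -1.29). The mean of the monocyte and border macrophage markers was 7.36 to 7.59 in the APP/PS1 and 8.23 to 8.29 in the WT libraries. That of the neutrophil markers was 6.92 to 8.40 against 8.44 to 9.21, and that of the lymphocyte markers 6.80 to 6.97 against 6.72 to 6.77. The part of all these markers in the member differences was not tested.

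**Figure D2:**
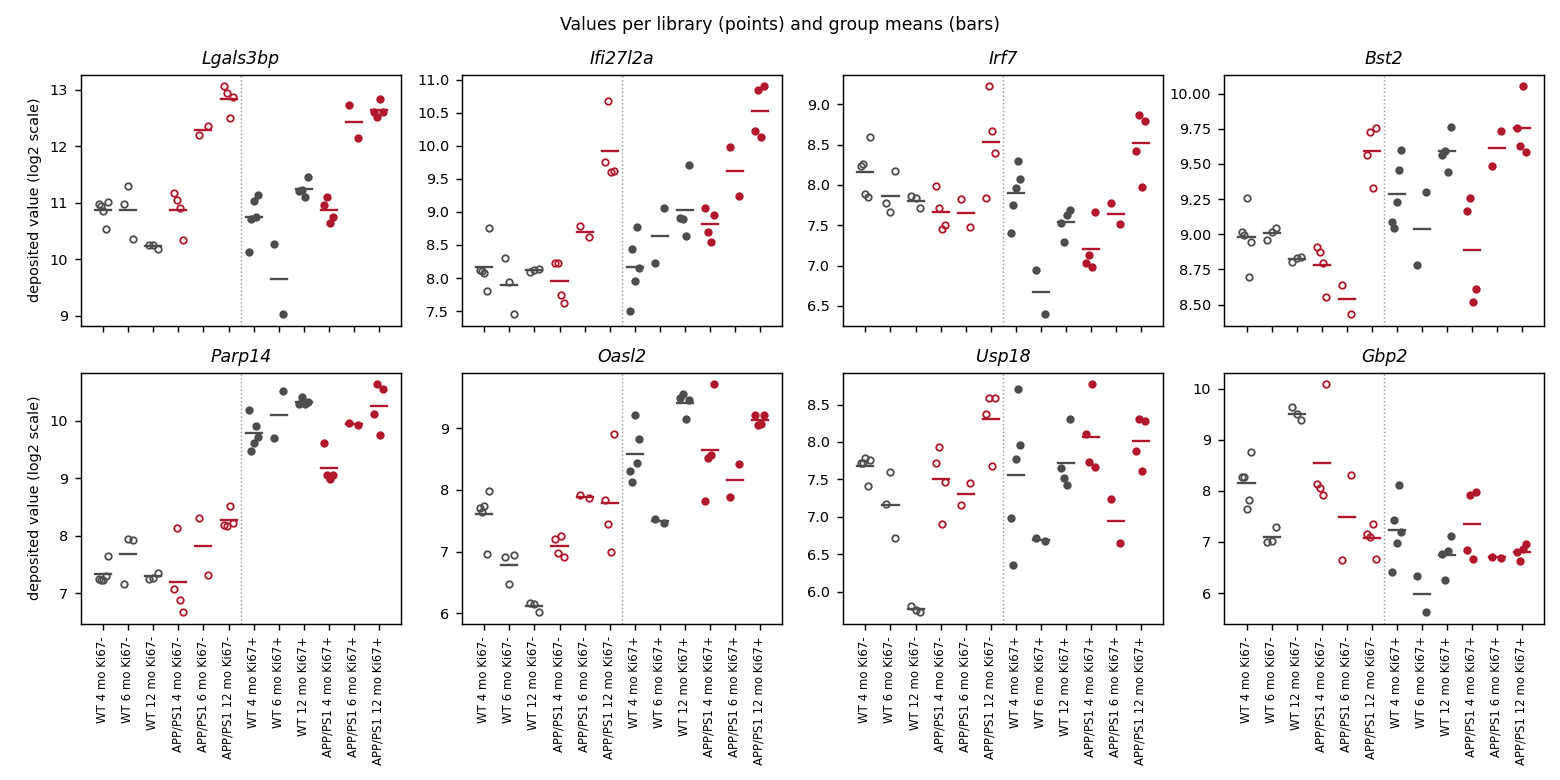
Deposited value (vertical axis, log2 scale) of 8 members in each library (points), with group means as bars, WT in grey and APP/PS1 in red, Ki67- as open and Ki67+ as filled points. Lgals3bp and Ifi27l2a are higher in 12-month APP/PS1 than 12-month WT cells in both gates, and Parp14 is higher in every Ki67+ group than in its Ki67- group. Usp18 and Oasl2 have their lowest and Gbp2 its highest group mean in 12-month WT Ki67- cells.

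In Ki67- cells at 12 months, 17 members were higher and 3 lower in APP/PS1 (8.71% and 7.72% of all genes), and the median difference of the members was 0.39, against -0.00 over all genes. Those higher included the secreted Lgals3bp and the chemokine Cxcl10 (1.56), 3 of the 12 RNA-binding and degrading effectors (Oas2, 2.23, Oasl2, 1.67, and Oas1a, 1.64) and 3 of the 5 genes of the Isg15 and ubiquitin system (Usp18, 2.54, Trim25, 1.49, and Herc6, 0.77). Usp18 removes Isg15 from proteins and damps the receptor chain Ifnar2. Its values were 8.37, 8.59, 7.68 and 8.58 in APP/PS1 and 5.81, 5.76 and 5.73 in WT, where all other WT groups lay between 6.36 and 8.71. The WT values are near the level of about 6 toward which low expression is compressed. The WT means of Oas2 (5.85), Mx1 (5.96), Zbp1 (5.79) and Oasl2 (6.11) are near it too, so the size of these differences is uncertain.

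The members lower in APP/PS1 Ki67- cells were Gbp2 (-2.44, SE 0.47), Oasl1 (-1.82, SE 0.34), which represses Irf7 translation, and Mx2 (-1.19, SE 0.35), annotated as a polymorphic pseudogene on this build. Gbp2 was at 7.16, 7.11, 7.34 and 6.67 in APP/PS1 and at 9.64, 9.51 and 9.39 in WT. Oasl1 was at 6.74, 6.52, 6.34 and 7.40 against 8.60, 8.59 and 8.52. The genotypes did not overlap for Usp18, Gbp2 or Oasl1, nor for 3441 higher and 3629 lower of the 14910 genes tested. These WT libraries held the lowest group mean of Usp18, Oas2, Oasl2, Mx1 and Zbp1 and the highest of Gbp2, Oasl1, Mx2, Ifit3, Samhd1 and Ifi27 in the whole series.

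This count rests on the 3 nearly identical WT libraries. Counted as 1 sample, they left 2 of the 20 members past the threshold, Lgals3bp and Usp18 (adjusted p = 0.0268), against 1.82% of all genes, with 18 members at an unadjusted p under 0.05. Leaving out any 1 of the 3 gave 12 members. In the fit to all libraries 24 members and 4339 of the 14910 genes tested had an unadjusted p under 0.05 in limma. For the fit with 1 sample that count over all genes was not made. All 11 disease-associated microglia markers were higher in APP/PS1 in this comparison, 4 of 8 monocyte and border macrophage markers and 2 of 6 astrocyte markers were lower, and their part in the member differences was not tested. Such a macrophage list had means of 7.14 to 7.61 in the APP/PS1 and 8.13 to 8.17 in the WT libraries.

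**Figure D3:**
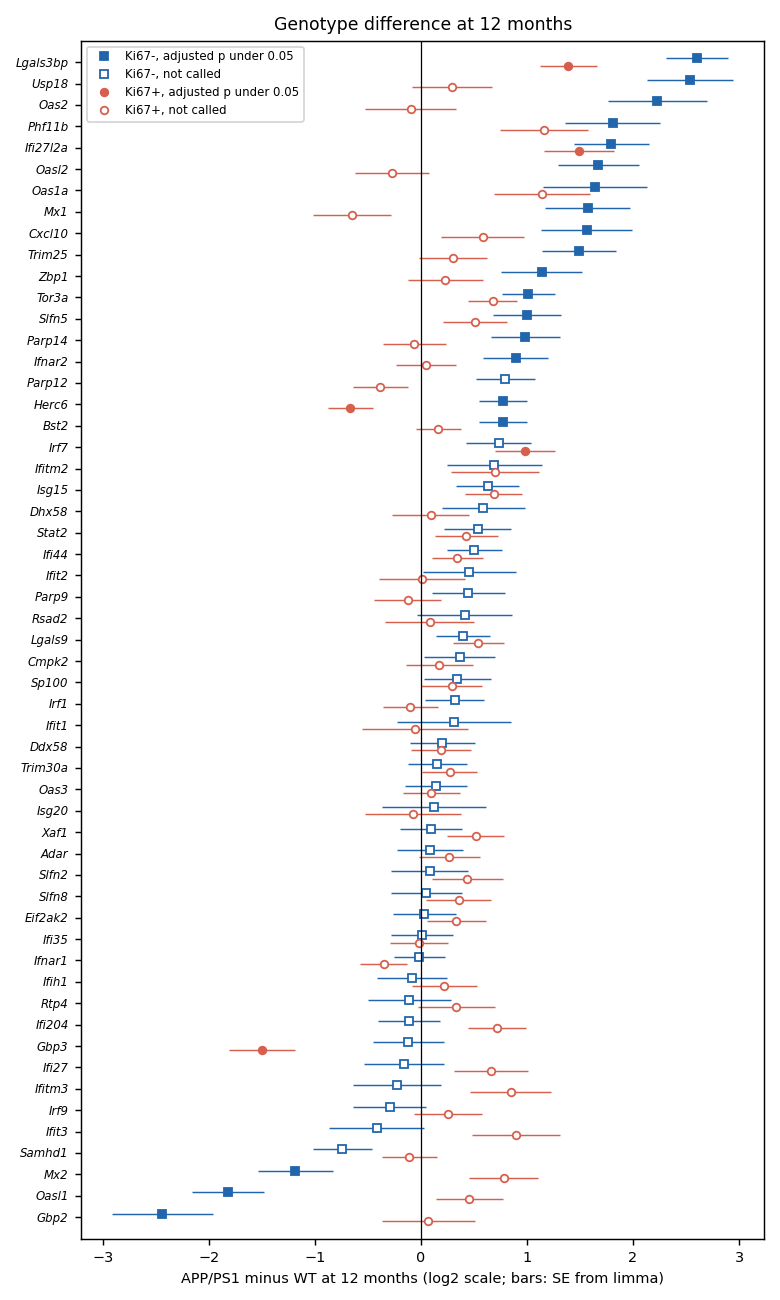
APP/PS1 minus WT at 12 months (horizontal axis, log2 scale, bars are the SE from limma) for each of the 55 members, in Ki67- (blue squares) and Ki67+ (red circles) cells, with filled symbols for an adjusted p under 0.05. Lgals3bp and Ifi27l2a are filled on the right in both gates, Gbp3 has a filled symbol on the left in Ki67+ cells, and Gbp2, Oasl1 and Mx2 are lower in Ki67- cells.

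At 6 months in Ki67+ cells, 3 members were higher in APP/PS1 and none lower (6.95% and 2.92% of all genes), namely Lgals3bp, the receptor chain Ifnar2 and Parp12, a zinc finger ADP-ribosyltransferase. Ifnar2 was at 11.89 and 11.11 in APP/PS1 and at 9.63 and 9.89 in WT, a difference of 1.74 (SE 0.40, adjusted p = 0.00596). Parp12 was at 8.73 and 8.90 against 7.35 and 7.95 (1.16, SE 0.37, adjusted p = 0.042), and Irf1, a transcription factor induced by interferon gamma, at 8.96 and 9.47 against 8.69 and 8.11 (0.82, SE 0.36, adjusted p = 0.158). None of these overlapped, nor did 4692 higher and 4249 lower of the 14910 genes tested. With 2 libraries a group an exact permutation test cannot go below p = 0.333. Without APP/PS1 replicate 1 the count was 1, Lgals3bp. In the same comparison 7 of 10 microglial markers were higher in APP/PS1, and their part in the 3 calls was not tested.

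None of the members passed in Ki67- cells at 6 months (0.0604% of all genes called) or in either gate at 4 months (0.0268% in Ki67+ and 0% in Ki67- cells). At an unadjusted p under 0.05 in limma there were 2 members at 6 months, and 8 in Ki67+ and 4 in Ki67- cells at 4 months. Of the 14910 genes tested, 1062 were under it at 6 months, and 1204 in Ki67+ and 740 in Ki67- cells at 4 months. The lowest p at 4 months belonged to Ifi204, a cytosolic DNA sensor of a multigene family, with a difference of 0.78 (SE 0.26, adjusted p = 0.427) in Ki67+ cells. With the 10 removed directions not counted as spent, 1 member passed at 4 months in Ki67+ cells and 1 at 6 months in Ki67- cells.

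The comparison of 12 with 4 months asked how the members moved with age within a genotype and gate. In APP/PS1 mice 6 members were higher and none lower at 12 months in each gate, against 2.8% of all genes higher and 2.61% lower in Ki67+ cells and 2.6% and 1.51% in Ki67- cells, and these comparisons do not use the nearly identical libraries. Lgals3bp, Ifi27l2a, Bst2 and Parp14, an ADP-ribosyltransferase that modulates STAT signalling, were higher in both gates. The Ki67+ list also held Irf7 and Oas1a, and the Ki67- list Oas2 and Slfn5, a schlafen family protein.

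Lgals3bp was at 10.95, 11.11, 10.64 and 10.75 in Ki67+ and at 11.17, 11.04, 10.91 and 10.34 in Ki67- libraries of 4-month APP/PS1 mice, below every 12-month value given above. It rose with age by 1.77 (SE 0.27, adjusted p = 0.000416) and 1.97 (SE 0.27, adjusted p = 5.09e-05). Ifi27l2a was at 9.05, 8.70, 8.54 and 8.96 in Ki67+ and at 8.23, 8.22, 7.75 and 7.63 in Ki67- libraries at 4 months, again below all 12-month values, and rose by 1.71 (SE 0.33, adjusted p = 0.0025) and 1.96 (SE 0.33, adjusted p = 0.000573).

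Bst2 (chr8:71534255-71537456, minus strand) was at 9.17, 9.26, 8.52 and 8.61 in the Ki67+ libraries at 4 months and at 9.76, 9.63, 10.05 and 9.58 at 12 months. The Ki67- values were 8.91, 8.88, 8.79 and 8.56 at 4 months and 9.56, 9.73, 9.33 and 9.75 at 12 months. Both gates separated by age without overlap, by 0.87 (SE 0.21, adjusted p = 0.0143) and 0.81 (SE 0.21, adjusted p = 0.0234). Of the 14910 genes tested, 1216 were higher and 1200 lower without overlap in Ki67+ cells, and 959 and 1107 in Ki67- cells. Irf7 in Ki67+ cells went from 7.03, 7.13, 6.98 and 7.67 at 4 months to the 12-month values above, a rise of 1.31 (SE 0.28, adjusted p = 0.00601).

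The median age difference of the members was 0.38 in Ki67+ and 0.29 in Ki67- cells of APP/PS1 mice, where that of all genes was -0.02 and -0.03. In Ki67+ cells Lgals3bp, Ifi27l2a and Irf7 were past the threshold without any 1 library. In Ki67- cells the count was 3 without 4-month replicate 1 or 12-month replicate 2. Disease-associated microglia markers also differed between these ages, with means of 9.79 to 10.53 at 4 months and 12.55 to 13.04 at 12 months in Ki67- cells, and their part in the rises was not tested.

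In WT mice, no member passed in Ki67+ cells (0.993% of all genes called). At an unadjusted p under 0.05 in limma there were 9 members and 1981 of the 14910 genes tested. Ifnar2 had the lowest p of the members (0.93, SE 0.27, adjusted p = 0.0929). In WT Ki67- cells 4 members were higher and 6 lower at 12 months (5.61% and 6.6% of all genes). Oasl1 (1.81), Mx2 (1.38), Gbp2 (1.36) and Ifi35 (0.89) were higher and Usp18 (-1.91), Mx1 (-1.50), Oasl2 (-1.49), Oas2 (-1.45), Trim25 (-1.04) and Tor3a (-0.72) lower. None of these 10 passed with the nearly identical libraries counted as 1 sample. Calls over all genes fell in that refit too. The count of members was 5 without any 1 of the 12-month libraries and 6 without 4-month replicate 5. Mx1, a dynamin-like GTPase, is a non-functional allele in C57BL/6 mice.

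Proliferating and non-proliferating microglia were compared at each age within each genotype, in 6 comparisons that share no library. Parp14 (chr16:35832874-35871544, minus strand) was higher in Ki67+ cells in all 6, by 1.98 to 3.03. Gbp3 was higher in 5, and Oasl2, Parp9, which pairs with the ubiquitin ligase Dtx3l, and Eif2ak2, the double-stranded RNA-activated kinase PKR, in 4 each. Ifi27 and Slfn2 were lower in 3 each. The calls of Gbp3, Parp9, Eif2ak2 and Slfn2 at 12 months in WT were lost with the nearly identical libraries counted as 1 sample. Of the 55 members 36 passed in at least 1 comparison and 19 in none, among them Isg15, whose differences ran from -0.60 to 0.18. A share of all genes called in at least 1 of the 6 was not computed. In each of the 6 the share of members called was below that of all genes, at 12 months in WT 45.5% against 46.3%. Without overlap, 2966, 4355 and 6465 of the 14910 genes tested were higher in WT Ki67+ cells at 4, 6 and 12 months, and 2196, 4699 and 5312 lower. In APP/PS1 the counts were 2268, 4657 and 2330 higher and 1719, 4475 and 1636 lower.

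Parp14 in WT mice was at 10.18, 9.46, 9.61, 9.91 and 9.72 in Ki67+ and at 7.25, 7.23, 7.22, 7.30 and 7.64 in Ki67- libraries at 4 months, a difference of 2.45 (SE 0.27, adjusted p = 1.50e-07). At 12 months the WT values were 10.29, 10.40, 10.28 and 10.32 against 7.26, 7.27 and 7.36 (3.03, SE 0.32, adjusted p = 7.90e-08), and in APP/PS1 mice 10.12, 10.63, 9.75 and 10.54 against 8.19, 8.17, 8.52 and 8.22 (1.98, SE 0.30, adjusted p = 4.55e-05). The lowest Ki67+ library of each comparison exceeded the highest Ki67- library. At 6 months the values were 9.69 and 10.51 against 7.16, 7.94 and 7.93 in WT (2.42, SE 0.39, adjusted p = 2.75e-05) and 9.95 and 9.92 against 8.32 and 7.31 in APP/PS1 (2.12, SE 0.42, adjusted p = 0.00189), and at 4 months in APP/PS1 9.62, 9.05, 8.98 and 9.06 against 7.08, 8.14, 6.88 and 6.67 (1.99, SE 0.30, adjusted p = 2.92e-05). Parp14 lost its call in 1 refit, at 6 months in APP/PS1 without Ki67- replicate 2 (adjusted p = 0.0512), and its partner in the same family Parp9 differed by 0.66 to 1.92.

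Oasl2 (chr5:114896936-114912234, plus strand), a 2',5'-oligoadenylate synthetase-like protein, was higher in Ki67+ cells at 4 and 12 months. In 12-month APP/PS1 mice it was at 9.21, 9.05, 9.06 and 9.21 in Ki67+ and at 7.83, 7.44, 6.99 and 8.90 in Ki67- libraries, a difference of 1.34 (SE 0.35, adjusted p = 0.00923). In 4-month APP/PS1 mice the values were 7.82, 8.51, 8.57 and 9.71 against 7.20, 6.98, 7.25 and 6.91 (1.57, SE 0.35, adjusted p = 0.00231). Neither pair of groups overlapped, and the WT difference at 4 months was 0.97 (SE 0.32, adjusted p = 0.0187). Irf1 (chr11:53770014-53778374, plus strand) was at 10.87, 10.13, 10.74, 10.95 and 10.04 in Ki67+ and at 9.38, 9.41, 9.08, 9.36 and 9.37 in Ki67- libraries of 4-month WT mice, a rise of 1.22 (SE 0.23, adjusted p = 0.000208) without overlap. It was also called at 4 months in APP/PS1 (1.10, SE 0.26) and at 12 months in WT (1.09, SE 0.28), and at 6 months its differences were -0.55 in WT and 0.23 in APP/PS1.

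At 4 months 10 members were higher and 5 lower in WT Ki67+ cells (19.3% and 14.5% of all genes) and 5 higher and 1 lower in APP/PS1 (12.3% and 9.24%). In WT mice the rises also took in Trim30a (0.95), Cxcl10 (1.37), the RNA sensor Ifih1 (0.99) and Herc6 (0.59), and the falls were in Ifnar2 (-0.86), the entry inhibitor Ifitm2 (-1.17), Tor3a (-0.65), Slfn2 (-0.90) and Ifit3 (-0.99). Ifit3 missed the threshold with the nearly identical libraries counted as 1 sample (adjusted p = 0.059), and the other 14 WT calls stayed. Ifi27 (-1.10) was the fall in APP/PS1. In both genotypes the share of members called was below that of all genes. Ifitm2, Ifit3, Oas1a and Slfn8 have close paralogues, so reads may have been split among copies.

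At 6 months 6 members were higher and 9 lower in WT Ki67+ cells (17.8% and 19% of all genes) and 4 higher in APP/PS1 (5.21%, with 2.6% lower). Xaf1, an interferon-induced pro-apoptotic factor, was at 9.68 and 9.03 against 7.21, 7.79 and 7.64 in WT (1.81, SE 0.35, adjusted p = 0.000263) and at 9.15 and 8.48 against 7.61 and 7.25 in APP/PS1 (1.39, SE 0.38, adjusted p = 0.0245), without overlap. The WT falls were Samhd1 (-1.54), Ifitm2 (-2.19), Slfn2 (-1.71), Lgals3bp (-1.23), Parp12 (-1.12), Irf7 (-1.20), Ifnar2 (-1.10), Trim25 (-1.24) and Ifi27 (-1.29), in the libraries whose microglial markers were low. In APP/PS1 the count was 1 or 2 without either Ki67+ library or without Ki67- replicate 1, and 0 without Ki67- replicate 2. In the fit to all libraries 7 members and 3406 of the 14910 genes tested had an unadjusted p under 0.05 in the APP/PS1 comparison.

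At 12 months 18 members were higher and 7 lower in WT Ki67+ cells (26.2% and 20.1% of all genes) and 4 higher and 1 lower in APP/PS1 (10.6% and 7.24%). The WT rises were led by Oasl2 (3.29), Parp14, Zbp1, a sensor of Z-form nucleic acids (2.25), Mx1 (2.18), Oas2 (2.02), Usp18 (1.96) and Cxcl10 (1.94), and the falls by Gbp2 (-2.77), Ifit3 (-1.90), Oasl1 (-1.76) and Ifi27 (-1.64). With the nearly identical Ki67- libraries counted as 1 sample, the calls of Irf1, Gbp3, Parp9, Eif2ak2, Bst2, Lgals3bp and Ifi27l2a in WT were lost. So were those of Ifnar1, Ifit2, Cmpk2, Mx2, Slfn2 and Samhd1, and the other WT calls stayed, Parp14 and Oasl2 among them. In APP/PS1, which does not use those libraries, Parp14, Oasl2, Zbp1 (1.34), and Eif2ak2 (1.04) were higher and Ifi44 (-0.71) lower. The APP/PS1 count was 8 without Ki67- replicate 4. Subtracting library medians moved the median of all genes from 0.09 to -0.13 in WT and from 0.05 to -0.10 in APP/PS1. It gave 13 higher and 9 lower members in WT and 4 higher and 7 lower in APP/PS1. The split of higher and lower members thus depends on the scaling. The share of all genes called with medians subtracted is not given here, so these counts are not a result about the members. All 6 astrocyte markers were higher in Ki67+ cells of both genotypes at 4 and 12 months, as were 2 of 6 in WT and 4 of 6 in APP/PS1 at 6 months, and their part in the member differences was not tested.

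**Figure D4:**
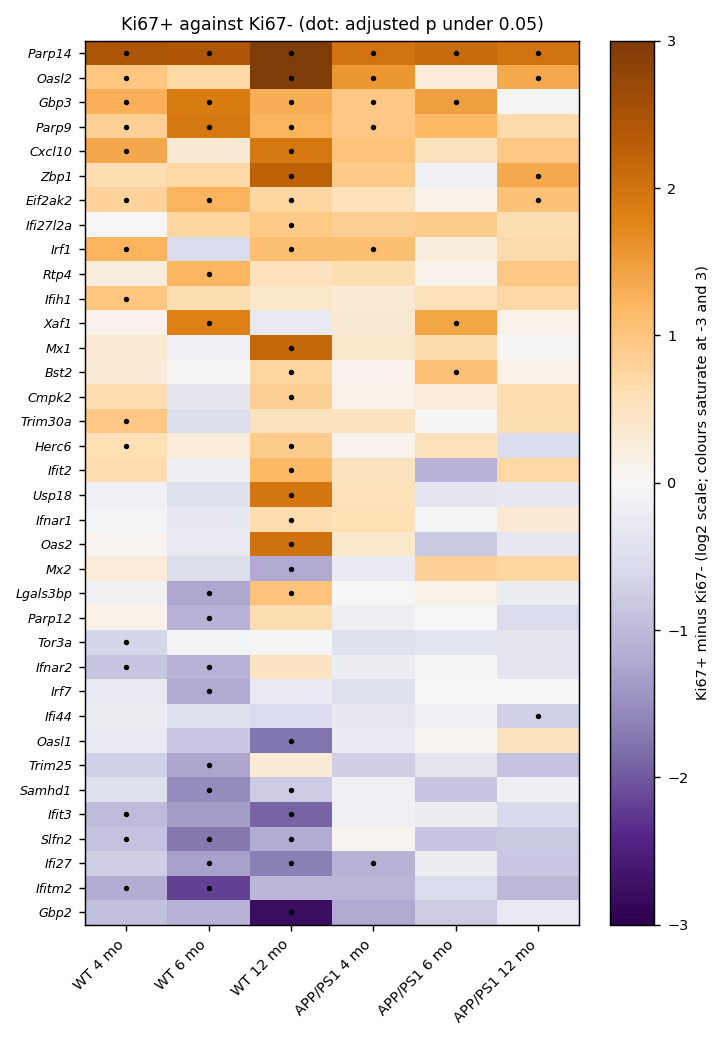
Ki67+ minus Ki67- (colour, log2 scale) for the 36 members with an adjusted p under 0.05 in 1 or more of the 6 comparisons (columns, by genotype and age), with a dot for each call. Parp14 has a dot in all 6 columns, Gbp3 in 5 and Oasl2, Parp9 and Eif2ak2 in 4.

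Whether the genotype difference itself differed between the gates was tested with an interaction term, Ki67+ minus Ki67-. At 12 months it was positive for 3 members and negative for 5 (3.55% and 4.46% of all genes). The positive terms were Gbp2 (2.51), Oasl1 (2.27) and Mx2 (1.96), and the negative terms Oas2 (-2.33), Usp18 (-2.24), Mx1 (-2.22), Oasl2 (-1.95) and Herc6 (-1.44). Herc6 was lower in APP/PS1 Ki67+ cells by 0.67 and higher in Ki67- cells by 0.77, with Ki67- values of 8.22, 8.37, 8.22 and 8.89 in APP/PS1 and 7.66, 7.65 and 7.65 in WT. None of the 8 passed with the nearly identical libraries counted as 1 sample. That refit also lowered the calls over all genes at 12 months. No member passed at 4 months (0% of all genes called) or 6 months (2.86%). At an unadjusted p under 0.05 in limma there were 3 members and 860 of the 14910 genes tested at 4 months, and 8 and 2438 at 6 months.

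The change of the genotype difference with age was tested for Ki67- cells between 4 and 12 months and for Ki67+ cells between 6 and 12 months. In Ki67- cells it was positive for 7 members and negative for 3 (3.41% and 2.86% of all genes), with Oas2 (3.06), Usp18 (2.71), Lgals3bp (2.60) and Oasl2 (2.20) first and Gbp2 (-2.84), Oasl1 (-1.62) and Mx2 (-1.52) negative. Lgals3bp was the member that passed with the nearly identical libraries counted as 1 sample (2.58, adjusted p = 0.0122). In Ki67+ cells no member passed in limma (2.2% of all genes called), and 6 members and 2271 of the 14910 genes tested had an unadjusted p under 0.05. Ifnar2 (-1.69, SE 0.49) and Parp12 (-1.55, SE 0.45) were at an adjusted p of 0.0651. These tests share libraries with the genotype and age comparisons.

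Members with an ISRE core in their window, without one, and with no RefSeq window were also counted side by side. In 12-month Ki67- cells 5 of 21 with a core, 5 of 21 without and 7 of 13 with no window were higher in APP/PS1, 1 of each was lower, and the medians were 0.31, 0.34 and 0.98. In 12-month Ki67+ cells 0, 2 and 1 of them were higher in APP/PS1 and 1, 1 and 0 lower, with medians of 0.36, 0.17 and 0.29. Between the gates, 5, 3 and 2 were higher in Ki67+ cells of 4-month WT mice and 4, 7 and 7 in those of 12-month WT mice. In 6-month WT cells 1 of 21 with a core, 7 of 21 without and 1 of 13 with no window were lower in Ki67+ cells, the gate whose microglial markers were low. The counts for 12-month Ki67- cells and for the gates of 12-month WT mice use the 3 nearly identical WT Ki67- libraries. Most of the former calls and many of the latter were lost with these libraries counted as 1 sample, as given above. The split by ISRE core is therefore uncertain in both. For all genes tested, the share with a higher call was 8.71% in the former comparison and 26.2% in the latter. It was 4.43% between the genotypes in 12-month Ki67+ cells and 19.3% between the gates of 4-month WT mice. The share of all genes with a lower call was 19% between the gates of 6-month WT mice. Between the genotypes at 12 months it was 7.72% in Ki67- and 5.34% in Ki67+ cells. No test was made of the counts by ISRE core.

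Genes of interferon signalling outside the members were read from a list of 30, of which 29 were tested. In the genotype comparisons at 12 months 1 was called in Ki67+ cells (3.45%, against 9.77% of all genes) and 3 higher and 2 lower in Ki67- cells (17.2% against 16.4%). None of these 5 passed with the nearly identical libraries counted as 1 sample. Irf8, a transcription factor that microglia need to mature, was higher in APP/PS1 Ki67+ cells at 6 months (2.03, SE 0.31, adjusted p = 0.000113) and 12 months (0.95, SE 0.22, adjusted p = 0.00722). In Ki67- cells at 12 months the Irf8 difference was 0.70 (SE 0.23, adjusted p = 0.04), with an adjusted p of 0.341 when those libraries counted as 1 sample. Trim56, a ubiquitin ligase of the STING pathway, was higher in APP/PS1 Ki67- cells at 12 months (1.68, SE 0.31), from a mean of 6.54 in the nearly identical WT libraries, and at an adjusted p of 0.0508 with them counted as 1 sample.

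Between the gates, 8 of the 29 genes were called at 4 months in WT (27.6%, against 33.8% of all genes) and 4 in APP/PS1 (13.8% against 21.5%), 10 and 1 at 6 months (34.5% against 36.8%, and 3.45% against 7.81%), and 10 and 6 at 12 months (34.5% against 46.3%, and 20.7% against 17.8%). The shares of listed genes were near or below those of all genes, and 5 of the 10 at 12 months in WT were left with the nearly identical libraries counted as 1 sample, Mb21d1 and Mavs among them. Mb21d1, which encodes the DNA sensor cGAS, was lower in Ki67+ cells in 5 of the 6 comparisons, by -2.72 to -1.12 among these calls, and Mavs, the adaptor of the RNA sensors, was higher in 5, by 1.12 to 2.23. Trex1, the exonuclease that degrades cytosolic DNA, was lower at 4 months in both genotypes (-1.14 and -1.26) and in WT at 6 months (-2.15) and 12 months (-1.15, adjusted p of 0.185 with those libraries counted as 1 sample). With age in APP/PS1 mice, Tmem173, which encodes STING, was lower at 12 months in Ki67+ (-0.83, SE 0.22, adjusted p = 0.023) and Ki67- cells (-0.81, SE 0.22, adjusted p = 0.0289), and Irf8 was higher in both (0.93 and 0.84).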

How the data were processed

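RNA of sorted Ki67+ and Ki67- microglia was sequenced by the authors, and per the labels kallisto 0.43.1 and DESeq2 were used on the reads. The deposited values are on a log2 scale, normalised and variance-stabilised by the authors, with 10 surrogate variables removed, and run from 3.07 to 18.3. They are not counts, so the depth behind each value is unknown and no count test was run. The 42 columns were matched to samples by the titles.

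A linear model with 12 group means was fitted to all 42 libraries and all genes with limma 3.58.1 in R 4.3.3, with empirical Bayes moderation. The rank of the deviations from group means was 20 of 30, so 20 residual degrees of freedom were used (prior 6.94). The test took in 14910 genes whose average reached 7 in some group (4241 were left out), and p-values were Benjamini-Hochberg adjusted over them, called under 0.05. On simulated data made from these groups with 200 genes shifted by 2, 167 (6-month Ki67+ genotype) to 189 (12-month Ki67+ genotype) of them were recovered.

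The members, gene lists and tests were chosen with earlier results of these data known. Named genes are every member called where there were at most 6 in a direction, otherwise those with the lowest p, with library values for up to 4 members a comparison and Irf1 at 6 months, and members beyond that rule were named after their values were seen. Alternatives were no filter, all 30 degrees of freedom, library medians subtracted, each library left out, a fit to the libraries of 1 age, and, chosen after seeing the data, the 6-month WT Ki67+ libraries left out and nearly identical libraries (median absolute difference under 0.1) counted as 1 sample, which leaves 39 samples. Promoters were RefSeq windows of GRCm38.p6 and gene positions GENCODE M21, read with Python 3.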

Additional observations from a re-analysis of the deposited data

Results flagged for a closer look

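Among 140 sets of 4 or 5 libraries (19 members and the mean of the 55, in each group of that size), 12 held a library far from the rest, where chance marks about 1 set in 20. That rate is a rough guide, since the sets share libraries and replicates 1 and 2 of 4-month WT Ki67- cells are nearly identical. In 4-month WT Ki67- cells, replicate 5 was high for Mx1 (8.18, others 7.23 to 7.35), Parp14 (7.64, others 7.22 to 7.30) and Oas2 (8.34, others 6.87 to 7.11), replicate 4 was low for Usp18 (7.41, others 7.71 to 7.79) and replicate 3 low for Irf1 (9.08, others 9.36 to 9.41). In 12-month APP/PS1 Ki67- cells, replicate 2 was high for Ifi27l2a (10.68, others 9.60 to 9.75), replicate 1 low for Parp12 (8.32, others 9.02 to 9.15) and replicate 3 high for Parp14 (8.52, others 8.17 to 8.22). In 4-month APP/PS1 cells, Ki67- replicate 4 was high for Gbp2 (10.09, others 7.93 to 8.14), and Ki67+ replicate 1 for Mx2 (7.80, others 6.95 to 7.07) and Parp14 (9.62, others 8.98 to 9.06). In 12-month APP/PS1 Ki67+ cells, replicate 4 was low for Irf1 (9.59, others 9.96 to 10.03).

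The genotype difference at 12 months differed between the gates by the interaction term for Oasl1 (2.27), Herc6 (-1.44), Mx2 (1.96), Mx1 (-2.22), Usp18 (-2.24), Gbp2 (2.51), Oasl2 (-1.95) and Oas2 (-2.33). In Ki67- cells it differed between 4 and 12 months for Lgals3bp (2.60), Usp18 (2.71), Oas2 (3.06), Gbp2 (-2.84), Oasl2 (2.20), Ifi27l2a (2.01), Mx1 (2.03), Oasl1 (-1.62), Trim25 (1.59) and Mx2 (-1.52). All but Lgals3bp in the second group lost the call with the nearly identical libraries counted as 1 sample.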

How the results depend on the processing

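Over 1930 refits of the 138 called differences of members, 1636 stayed past the threshold in the same direction, 294 missed it and 0 changed direction. With nearly identical libraries counted as 1 sample, the count of members called was 2 for genotype at 12 months in Ki67- cells, 12 for Ki67 at 12 months in WT, 0 for age in WT Ki67- cells, 0 for the 12-month interaction and 1 for genotype by age in Ki67- cells. Calls over all genes fell in these comparisons too, so the losses are not particular to the members. A single sample for a group has no spread of its own and is assumed to vary like the others. With all 30 degrees of freedom the counts rose to 1 (genotype, 4 months, Ki67+), 12 and 1 (6 months, Ki67+ and Ki67-), 12 (12 months, Ki67+), 13, 7 and 19 (Ki67 in APP/PS1 at 4, 6 and 12 months), 6 (age, WT Ki67+), 15 and 14 (age, APP/PS1 Ki67+ and Ki67-), 2 and 13 (interaction at 6 and 12 months) and 3 and 18 (genotype by age, Ki67+ and Ki67-). Fits to the libraries of 1 age, in which all nominal degrees of freedom were used, gave 16 for genotype at 12 months in Ki67+ cells, 13 and 21 for Ki67 in APP/PS1 at 4 and 12 months and 18 for the 12-month interaction. Subtracting library medians gave 11 for Ki67 in APP/PS1 at 12 months, and leaving out the 6-month WT Ki67+ libraries 10 at 4 months. The other counts were within 1.5 times of those reported. For refits other than the one with nearly identical libraries counted as 1 sample, the share of all genes called is not given here. Their counts are therefore not a result about the members.

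Leaving out 1 library at a time gave 1 to 3 members for genotype at 6 months in Ki67+ cells, 3 to 5 and 12 to 23 at 12 months in Ki67+ and Ki67- cells, 0 to 2 and 4 to 8 for Ki67 in APP/PS1 at 6 and 12 months, 0 to 1 and 5 to 8 for age in WT Ki67+ and Ki67- cells, 3 to 9 in APP/PS1 Ki67- cells, 0 to 1 for the 6-month interaction and 0 to 2 for genotype by age in Ki67+ cells. The count of 1 for age in WT Ki67+ cells came without 4-month replicate 5, that of 1 for the 6-month interaction without WT Ki67+ replicate 1, and those of 1 and 2 for genotype by age in Ki67+ cells without 6-month WT replicate 1 and 12-month APP/PS1 replicate 3. No paired analysis was possible because the labels give the groups no shared replicate numbers. Depth is unknown, and removed surrogate variables cannot be restored from these values.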
